A study of Mus musculus with 51 samples.

Results

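The genes described here are 10 cell-cycle genes that act when a spermatocyte leaves meiotic prophase and divides: the cyclins Ccna1, Ccna2, Ccnb1 and Ccnb2, the kinases Cdk1, Cdk2, Plk1, Aurkb and Aurkc, and the phosphatase gene Cdc25c. They were chosen by name, with earlier results of these data known, and make up 10 of the 20698 protein-coding genes on chromosomes 1 to 19 in GENCODE M21. A gene was called in a list when a peak overlapped, by at least 1 bp, a window reaching 500 bp upstream and downstream from the first base of any of its protein-coding transcripts. The width of its widest such peak, in bp, was its only magnitude, since the lists hold no height. The nuclei came from whole testis of adult male wild-type mice of the strain C57Bl/6J. Fixed nuclei with the DNA content of primary spermatocytes were sorted by antibodies against stage-specific proteins into 5 stages of prophase. These are, in order, leptonema and zygonema, early and late pachynema, and diplonema. H3K4me3 (EpiCypher antibody) had 2 libraries per stage, experiments 1 and 2, whereas H3K4me2/3 (Abcam antibody, experiment 2) and H3K9ac (experiment 1) had 1 list per stage and no replicates. Nothing in the labels says that the 2 experiments used separate animals, so the p-values measure the spread between these libraries, which may be technical. The SE and p-values of limma rest on the spread between the 2 libraries of a stage, not on that between stages.

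Entry into division is driven by CDK1 bound to a B-type or A-type cyclin. Inhibitory phosphates on the kinase are taken off by CDC25 phosphatases, and PLK1 and the Aurora kinases then act on the cyclin-CDK switch, the spindle, the centromeres and the synaptonemal complex. In the testis the cyclin A1 gene Ccna1 is known as the germline A cyclin required for males to complete meiosis, and Aurkc is the Aurora kinase typical of germ cells. H3K4me3 and H3K9ac are histone marks found at active promoters. A wider peak covers more nucleosomes.

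The H3K4me3 lists held 4883 to 15699 peaks and called 25.2% to 46.3% of all protein-coding genes. The median width at called genes ran from 402 bp in the second early pachynema list to 938 bp in the second diplonema list. Widths in bp are therefore not on the same scale in all lists. The H3K4me2/3 lists held 17561 to 30943 peaks, and the H3K9ac lists held 516 to 16003. The depth of each library is unknown. The first late pachynema library stood apart for these genes, with 4 of the 10 called where the other 3 later libraries had 9 or 10. The comparisons between later and earlier stages are given without that library where it moves them. The paper lists it with a higher stage purity and more starting chromatin than the second late pachynema library. Of the H3K4me3 libraries, the second of zygonema is listed as the least pure. The part of purity in the calls was not tested. Sycp3, a gene of the synaptonemal complex, had an H3K4me3 peak in all 10 libraries. Sycp1, which encodes the SCP1 protein used in the sort, had one in 8 of the 10. It was uncalled in the experiment 1 libraries of late pachynema and diplonema. Stra8, the inducer of meiosis, had an H3K4me3 peak in both leptonema libraries and nowhere later. Its H3K4me2/3 was called in leptonema and zygonema and in no later stage. Hist1h1t, which encodes the H1t protein used in the sort, had an H3K4me3 peak in 1 library each of leptonema and zygonema and none from early pachynema on, and it had H3K4me2/3 peaks in zygonema and early pachynema. The spermatid genes Prm1, Prm2, Tnp1, Tnp2 and Acrv1 were called in 0 of the 10 H3K4me3 libraries, while Spaca1 was called in 6. Of 5 spermatogonial markers, Dmrt1 had H3K4me3 in both leptonema libraries and the first of zygonema, Kit had it in the second leptonema library, and Zbtb16, Gfra1 and Sohlh1 had none. H3K4me2/3 was called at all 5 in leptonema and zygonema and at 3 in each later stage. Of 5 Sertoli markers, 3 had H3K4me3 in the second leptonema library and 1 in the second zygonema library, and H3K4me2/3 was called at 4, 3, 1, 1 and 1 of them from leptonema to diplonema. Of 5 Leydig markers Insl3 was called in the second diplonema library. The part of other cells in the calls below was not tested.

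The promoters of 7 of the 10 genes were in the RefSeq promoter table of build GRCm38.p6, namely those of Ccna1, Ccnb1, Ccnb2, Cdk1, Cdk2, Plk1 and Aurkc. Their RefSeq starts lay 0 to 21 bp from the nearest GENCODE start. From the most 5′ GENCODE start, used for the peak positions below, they lay 4 to 446 bp, with Ccna1 the farthest. The 5 promoters below were chosen because their genes span the H3K4me3 patterns described next, from peaks in every library (Ccnb2) to peaks in diplonema alone (Aurkc). Each runs from 250 bases before the RefSeq start to 30 bases from it, 5′ to 3′. Capitals mark matches on either strand to the CCAAT box (CCAAT, or ATTGG when inverted) and to the cell-cycle genes homology region, CHR (TTTGAA, or TTCAAA when inverted). A further stretch of 30 bases shows the CHR match that lies just past the end of the Plk1 run.
Ccna1, chr3:55055026-55055305, minus strand: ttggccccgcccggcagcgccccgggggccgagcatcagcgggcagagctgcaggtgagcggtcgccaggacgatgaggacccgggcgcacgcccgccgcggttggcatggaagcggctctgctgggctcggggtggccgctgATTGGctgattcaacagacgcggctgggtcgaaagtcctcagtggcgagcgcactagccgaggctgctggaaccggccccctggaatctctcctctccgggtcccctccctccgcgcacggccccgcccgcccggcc
Ccnb2, chr9:70421525-70421804, minus strand: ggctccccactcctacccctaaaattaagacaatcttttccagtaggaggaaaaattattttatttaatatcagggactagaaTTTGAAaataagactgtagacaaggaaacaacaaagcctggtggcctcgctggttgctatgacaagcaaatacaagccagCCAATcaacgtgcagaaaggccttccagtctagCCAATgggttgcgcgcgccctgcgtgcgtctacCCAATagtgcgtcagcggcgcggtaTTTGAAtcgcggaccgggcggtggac
Cdk1, chr10:69352883-69353162, minus strand: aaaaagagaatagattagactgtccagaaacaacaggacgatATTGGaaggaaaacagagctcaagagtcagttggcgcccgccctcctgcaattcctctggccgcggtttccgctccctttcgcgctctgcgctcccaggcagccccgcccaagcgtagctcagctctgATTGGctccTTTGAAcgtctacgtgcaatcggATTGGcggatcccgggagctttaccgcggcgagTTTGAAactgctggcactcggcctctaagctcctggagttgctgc
Plk1, chr7:122159185-122159464, plus strand: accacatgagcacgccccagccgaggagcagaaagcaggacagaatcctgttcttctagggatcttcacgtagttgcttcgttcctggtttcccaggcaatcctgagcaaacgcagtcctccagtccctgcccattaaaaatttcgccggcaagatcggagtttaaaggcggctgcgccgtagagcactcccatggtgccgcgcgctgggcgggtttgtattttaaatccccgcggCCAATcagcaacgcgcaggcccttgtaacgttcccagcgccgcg
Plk1 site, chr7:122159453-122159482, plus strand: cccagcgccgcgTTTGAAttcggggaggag
Aurkc, chr7:6995135-6995414, plus strand: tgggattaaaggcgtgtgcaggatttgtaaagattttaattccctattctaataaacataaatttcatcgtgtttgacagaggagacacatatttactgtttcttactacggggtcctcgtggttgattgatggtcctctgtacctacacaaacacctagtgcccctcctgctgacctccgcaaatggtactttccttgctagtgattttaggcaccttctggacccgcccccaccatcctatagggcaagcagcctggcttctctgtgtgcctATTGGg

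The letters differed between these promoters. Positions are those of the first letter of a match, with the first base of the gene at 0. Ccnb2 held 3 CCAAT matches, at -87, -54 and -21, and 2 CHR matches, at -167 and 4. Cdk1 held 3 inverted CCAAT matches, at -208, -80 and -48, and 2 CHR matches, at -71 and -15. Plk1 held a CCAAT match at -14 and a CHR match at 30. Within the 300 bases of the table, which reach 50 bases past the start, a CCAAT match was present in 37.4% of 32851 promoters, a CHR match in 17.9% and both in 6.95%. Ccnb1, with 2 CCAAT matches, and Ccna1, Cdk2 and Aurkc, with 1 each, held no CHR match. The cyclic AMP response element TGACGTCA, present in 1.79% of promoters, was found in none of the 7. Aurkc also stood apart in base composition: it held 6 CpG in 300 bases at 46% GC, close to the median of 7 CpG over all promoters in the table. The other 6 held 19 to 35 CpG, with Ccna1 at 35 CpG and 74% GC. A match of letters is a description and not a bound site.

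The 10 genes were called most often in diplonema. A list of 56 other division genes, described below, did not share this for H3K4me3. Of the 56, 83.9% had a peak in both leptonema libraries and 69.6% in both diplonema libraries. In H3K4me3, 5 and 8 of the 10 had a peak in the leptonema libraries of experiments 1 and 2, against 38.7% and 46.3% of all protein-coding genes. In zygonema 7 and 6 were called (36.2% and 35.3% of all genes), and in early pachynema 5 and 4 (33.6% and 25.2%). In late pachynema 4 and 9 were called, against 26.4% and 39.7%, so that the 2 libraries of that stage differed by 5 of the 10 genes. In diplonema 9 and 10 were called, against 28.7% and 46.0%. Counted per stage, 9 of the 10 had a peak in both diplonema libraries (28.6% of all genes), while 5 had one in both libraries of leptonema (38.1%), 6 in zygonema (32.4%) and 4 each in early pachynema (24.9%) and late pachynema (25.8%). In each of the 5 stages the longer of the 2 lists called more of the genes, and the part of list length was not tested. The first early pachynema list held 6647 peaks and called 5 of the genes, and the first diplonema list held 6645 peaks and called 9.

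**Figure D1:**
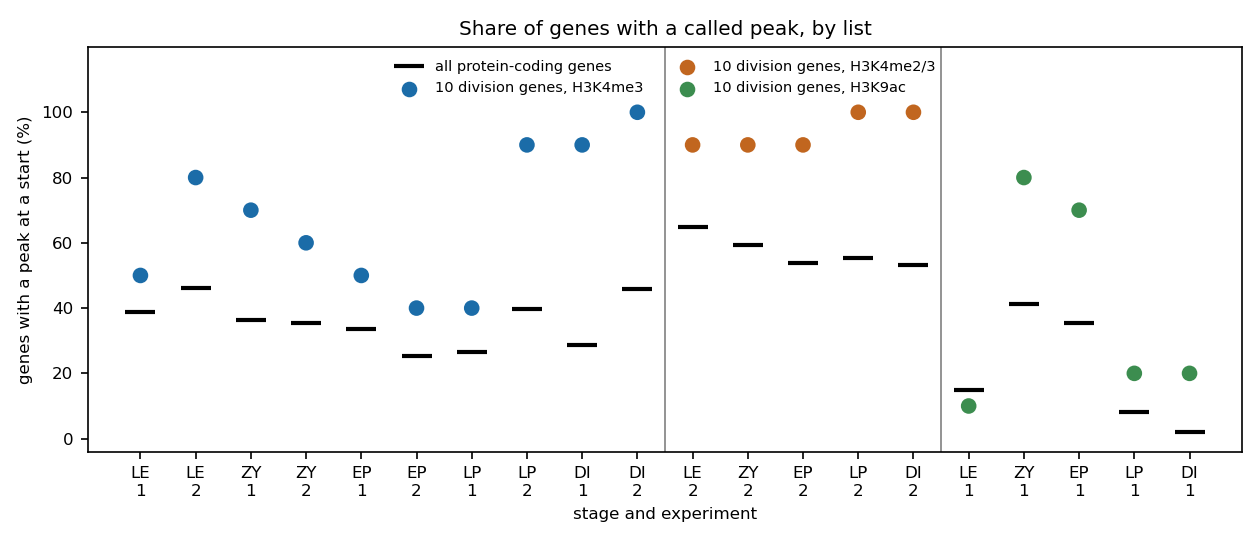
Share of genes with a called peak at a protein-coding start (y axis, percent) in each of the 20 lists (x axis, stage over experiment, with LE leptonema, ZY zygonema, EP early pachynema, LP late pachynema, DI diplonema). Dots are the 10 division genes and dashes all 20698 protein-coding genes; in diplonema H3K4me3 the dots stand at 9 and 10 genes of 10, with the dashes at 28.7% and 46.0%.

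H3K4me2/3 was called at 9, 9, 9, 10 and 10 of the genes from leptonema to diplonema, against 64.7%, 59.4%, 53.7%, 55.4% and 53.3% of all genes. The Aurkc start was the only one of the 10 without H3K4me2/3 in the first 3 stages. H3K9ac was called at 1 gene in leptonema (14.8% of all genes) and at 8 in zygonema (41.1%). In early pachynema it was called at 7 (35.3%), and in the last 2 stages at 2 each (8.28% and 1.99%). Over all lists of an antibody the genes were called 67 of 100 times for H3K4me3, 47 of 50 times for H3K4me2/3 and 20 of 50 times for H3K9ac. In experiment 2 H3K4me3 gave 37 and H3K4me2/3 47 calls of 50, and their lists covered 38.5% and 57.3% of all pairs of gene and list. The early pachynema nuclei of that experiment are listed with a different purity and chromatin input for each antibody, so the 2 lists of that stage are not from the same material. Without this stage the calls were 33 and 38 of 40, against 41.8% and 58.2%.

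**Figure D2:**
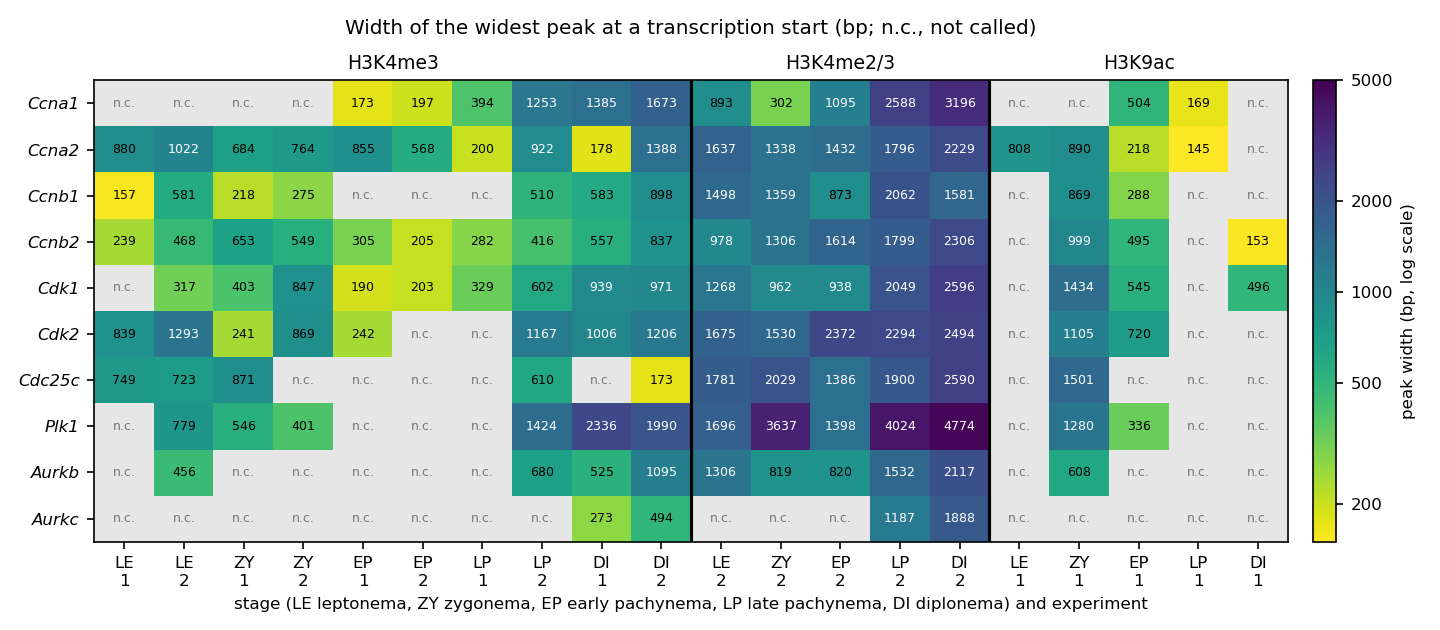
Width in bp of the widest peak at a protein-coding start for each of the 10 genes (rows) in each of the 20 lists (columns, stage over experiment), with colour on a log scale and n.c. for no called peak. Ccna1 and Plk1 reach their largest H3K4me3 widths, 1673 and 2336 bp, in diplonema, and the Aurkc row is empty in H3K4me3 before diplonema.

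Ccna1 lies on the minus strand of chromosome 3 of mm10, with its most 5′ start at 55055501. It had no H3K4me3 peak before pachynema, in any of the 4 leptonema and zygonema libraries. The width was 173 and 197 bp in early pachynema, 394 and 1253 bp in late pachynema and 1385 and 1673 bp in diplonema, for experiments 1 and 2. All 4 later libraries (late pachynema and diplonema) were therefore wider than all 6 earlier ones. Ccna1 was the only one of the 10 genes with this separation, which 2.93% of the 11204 genes with a peak in at least 1 library showed. H3K4me2/3 was already present in leptonema, at 893 bp, was 302 bp wide in zygonema and 1095 bp in early pachynema, and spanned 2588 and 3196 bp in the last 2 stages. H3K9ac was called only in early pachynema (504 bp) and late pachynema (169 bp). The H3K4me3 peak of the first early pachynema library lay upstream, from -251 to -79 bp of the most 5′ start, and that of the second spanned the start, from -101 to 95 bp. The diplonema peaks ran from -472 to 912 bp and from -547 to 1125 bp, so most of their width lay downstream of the most 5′ start. The RefSeq start of Ccna1 lies 446 bp downstream of that one, within both peaks. The share of a peak on each side therefore depends on the start used. The start of the antisense gene 4931419H13Rik falls in the same window, and the lists carry no strand, so the part of either gene cannot be told apart. No list had a peak at the start of the short transcript Ccna1-203, at position 55050638 of chromosome 3.

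Ccna2, the cyclin A used by mitotic cells as well (chromosome 3, minus strand, start at 36572150), had an H3K4me3 peak in all 10 libraries, as 18.0% of all genes did. The width was 880 and 1022 bp in leptonema, 684 and 764 bp in zygonema, 855 and 568 bp in early pachynema, 200 and 922 bp in late pachynema and 178 and 1388 bp in diplonema. In the last 2 stages the experiments went apart: experiment 1 gave the narrowest peaks of the 10 libraries and experiment 2 gave peaks of 922 and 1388 bp. The narrow peaks of experiment 1 lay upstream of the start, from -208 to -9 bp in late pachynema and from -466 to -289 bp in diplonema. H3K4me2/3 was 1338 to 2229 bp wide in the 5 stages. Ccna2 was the only one of the 10 genes with H3K9ac in leptonema (808 bp), and its H3K9ac width was 890 bp in zygonema, 218 bp in early pachynema and 145 bp in late pachynema, with no peak in diplonema.

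**Figure D3:**
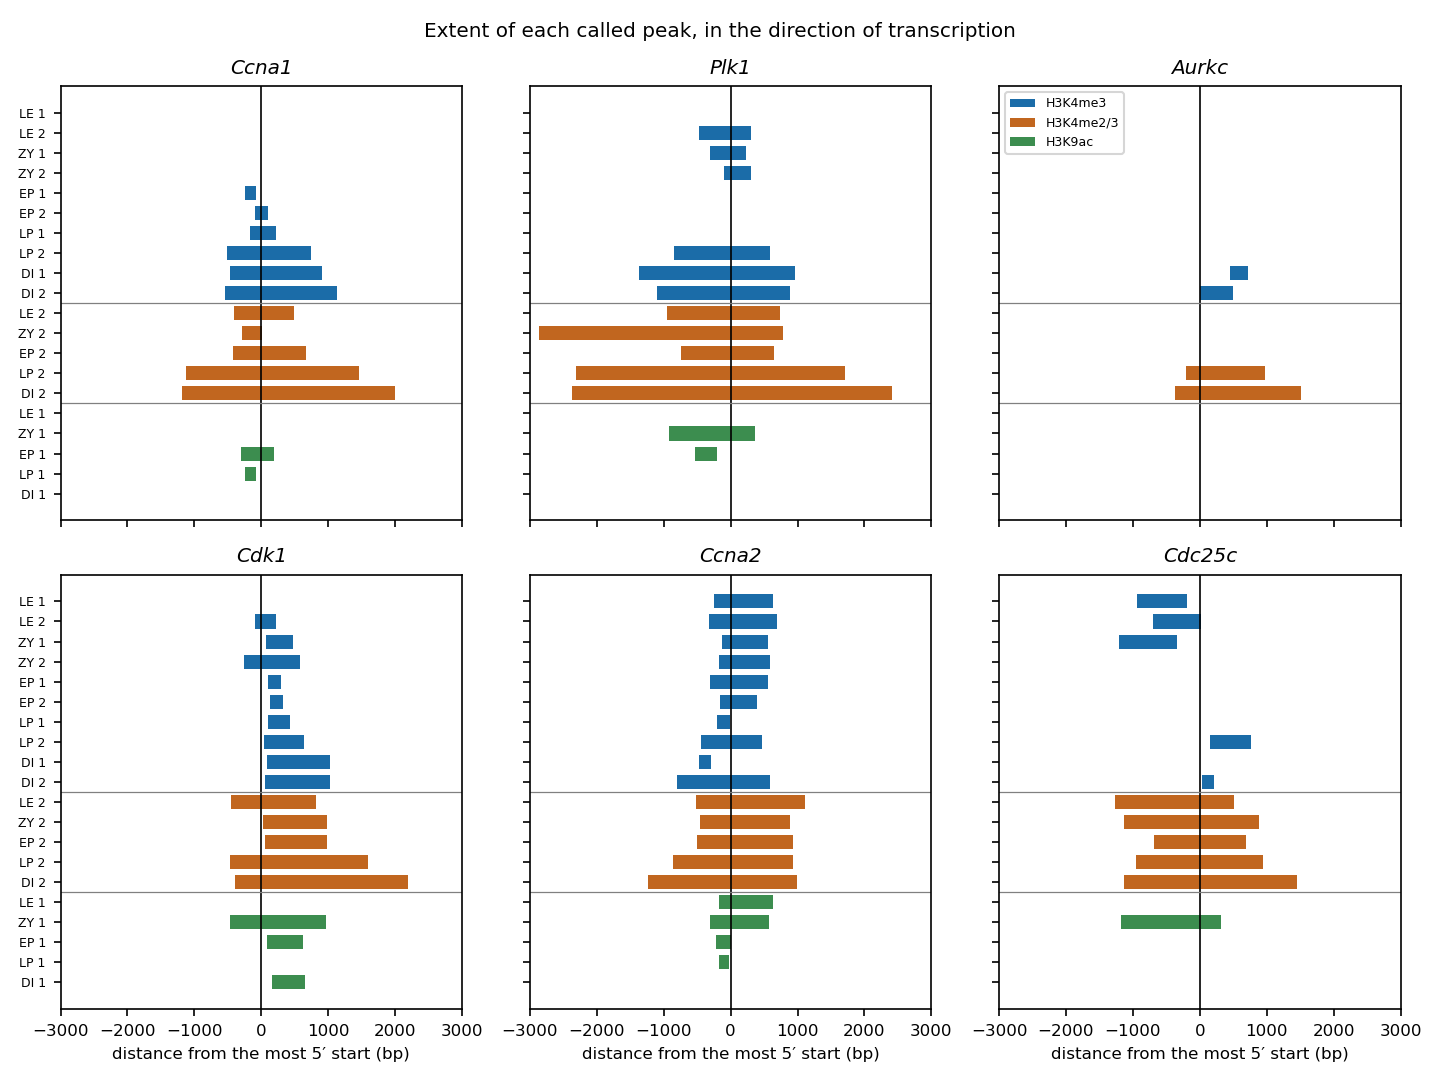
Extent of each called peak (bars) round the most 5′ start of 6 genes, with distance in bp in the direction of transcription on the x axis and one line per list (stage and experiment) on the y axis; blue is H3K4me3, orange H3K4me2/3 and green H3K9ac. The Ccna1 and Plk1 bars are longest in diplonema, where H3K4me3 reaches 1125 and 966 bp downstream of the most 5′ start. The H3K4me3 bars of Cdc25c lie mostly upstream of the start in leptonema and downstream of it in late pachynema, where experiment 2 alone had a peak. Its H3K4me2/3 bars span the start in both stages.

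The B cyclin genes, whose products switch CDK1 on at entry into division, differed from each other. Ccnb2 (chromosome 9, minus strand, start at 70421547) had an H3K4me3 peak in all 10 libraries, of 239 and 468 bp in leptonema, 653 and 549 bp in zygonema, 305 and 205 bp in early pachynema, 282 and 416 bp in late pachynema and 557 and 837 bp in diplonema. Ccnb1 (chromosome 13, minus strand, most 5′ start at 100786570) had peaks of 157 and 581 bp in leptonema and 218 and 275 bp in zygonema, none in early pachynema, 510 bp in the second late pachynema library alone, and 583 and 898 bp in diplonema. Both genes were thus narrow or uncalled in early pachynema and had their widest H3K4me3 peak, in bp, in the second diplonema library. Relative to the median of called genes in each list, Ccnb2 stood higher in zygonema, at 0.959 and 0.948, than in diplonema, at 0.727 and 0.892. By that measure Ccnb1 was still highest in the second diplonema library, at 0.957. The early pachynema peaks of Ccnb2 ran from -6 to 298 bp and from 11 to 215 bp of its start, so that its 3 CCAAT matches lay upstream of both. H3K4me2/3 was called in all 5 lists of both genes. It was widest in diplonema for Ccnb2 (2306 bp) and in late pachynema for Ccnb1 (2062 bp). H3K9ac was present at both in zygonema, with 999 bp at Ccnb2 and 869 bp at Ccnb1, and narrower in early pachynema, with 495 and 288 bp. Ccnb2 also had a peak of 153 bp in the short diplonema list.

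Cdk1, the kinase that all entry into division depends on (chromosome 10, minus strand, most 5′ start at 69352938), had H3K4me3 in 9 of the 10 libraries. It was not called in the first leptonema library and had 317 bp in the second, 403 and 847 bp in zygonema, 190 and 203 bp in early pachynema, 329 and 602 bp in late pachynema and 939 and 971 bp in diplonema. In bp the 2 diplonema libraries were the widest and lay close together, while the zygonema libraries lay far apart and the second of them overlapped the later stages. Relative to the median of called genes in its list, the second zygonema library stood highest, at 1.46, against 1.23 and 1.04 in diplonema. H3K4me2/3 was 938 to 1268 bp wide in the first 3 stages, 2049 bp in late pachynema and 2596 bp in diplonema, where it also reached the start of the transcript Cdk1-207. H3K9ac was 1434 bp wide in zygonema, 545 bp in early pachynema and 496 bp in diplonema, in a list that called 1.99% of genes.

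Cdk2, which serves at telomeres and crossover sites in prophase spermatocytes (chromosome 10, minus strand, most 5′ start at 128705030), was called in 8 of the 10 H3K4me3 libraries. The width was 839 and 1293 bp in leptonema, 241 and 869 bp in zygonema, 242 bp in the first early pachynema library and none in the second, none and 1167 bp in late pachynema, and 1006 and 1206 bp in diplonema. Leptonema and diplonema overlapped in width. H3K4me2/3 was 1530 to 2494 bp wide in the 5 stages, and H3K9ac was called in zygonema (1105 bp) and early pachynema (720 bp). The gene shares its window with the start of Pmel, a pigment cell gene on the other strand, which had the same calls and widths in all 20 lists.

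Cdc25c, the phosphatase gene (chromosome 18, minus strand, start at 34751533), had most of its H3K4me3 calls in the first stages. Its H3K4me3 peaks were 749 and 723 bp wide in leptonema and 871 bp in the first zygonema library. It was uncalled in the second zygonema library, in both of early pachynema and in the experiment 1 libraries of late pachynema and diplonema, and had 610 and 173 bp in those of experiment 2. The position changed with the stage. The 3 early peaks lay on the upstream side, from -935 to -187 bp, from -699 to 23 bp and from -1211 to -341 bp, where the start of the noncoding gene 2010110K18Rik also falls, and the 2 late ones lay downstream, from 155 to 764 bp and from 35 to 207 bp. H3K4me2/3 covered both sides in all 5 stages, with widths of 1386 to 2590 bp. H3K9ac was called in zygonema alone (1501 bp).

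Plk1, which encodes the Polo-like kinase that promotes spindle assembly and removal of the synaptonemal complex (chromosome 7, plus strand, most 5′ start at 122159439), had the widest H3K4me3 peaks of the 10 genes. It was not called in the first leptonema library and had 779 bp in the second, 546 and 401 bp in zygonema, none in both early pachynema libraries, none and 1424 bp in late pachynema, and 2336 and 1990 bp in diplonema. The diplonema peaks stood at the 98.5th and 91.7th percentile of the widths of all called genes in their lists. They reached 1369 and 1096 bp upstream of the start and 966 and 893 bp downstream of it. H3K4me2/3 was 1696 bp wide in leptonema, 3637 bp in zygonema, 1398 bp in early pachynema, 4024 bp in late pachynema and 4774 bp in diplonema. H3K9ac was 1280 bp wide in zygonema and 336 bp in early pachynema. Gm15489, an antisense gene, starts within the same window, and the part of either cannot be told apart.

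The Aurora kinase genes were the least often called. Aurkb, whose product is the kinase of the chromosomal passenger complex (chromosome 11, plus strand, most 5′ start at 69045647), had H3K4me3 in 4 of 10 libraries: 456 bp in the second leptonema library, none in zygonema or early pachynema, none and 680 bp in late pachynema, and 525 and 1095 bp in diplonema. Its H3K4me2/3 was present in all 5 stages, at 1306, 819, 820, 1532 and 2117 bp, and its H3K9ac in zygonema alone, at 608 bp. Aurkc, the germ-cell paralogue (chromosome 7, plus strand, most 5′ start at 6995300), was called for H3K4me3 in the 2 diplonema libraries only, at 273 and 494 bp, a pattern over the 10 libraries shared by 0.406% of all genes. Its H3K4me2/3 appeared in late pachynema (1187 bp) and diplonema (1888 bp) and in no earlier stage. It had no H3K9ac peak. Aurkc was therefore the one gene of the 10 in which both H3K4 antibodies gave no peak at the start until late pachynema.

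Calls were compared between the 4 later and the 6 earlier H3K4me3 libraries by a two-sided exact permutation test over all 210 splits, which can reach p = 0.00476 at the lowest. On average 8 ± 2.71 of the 10 genes (SD, n = 4) were called in a later library and 5.83 ± 1.47 (SD, n = 6) in an earlier one, while the share of all genes called was 35.2% and 35.9%. Without the first late pachynema library the later mean was 9.33 ± 0.577 (SD, n = 3), and 38.1% of all genes were called. That library was set apart by its low calls of these same genes, so the higher mean and smaller SD follow from leaving it out. None of the 8 genes whose calls varied passed (0% of 7480 genes tested passed at adjusted p under 0.05, and 493 had an unadjusted p under 0.05). Ccna1, called in 4 of 4 later and 2 of 6 earlier libraries, came nearest of the 10, with an exact permutation p of 0.0762 and an adjusted p of 0.702. Aurkb, called in 3 of 4 and 1 of 6, had an exact permutation p of 0.190, and Aurkc, in 2 of 4 and 0 of 6, one of 0.133. Without the first late pachynema library again no gene passed, and the difference in the share of libraries called went from 0.583 to 0.833 for Aurkb (exact permutation p = 0.0476, adjusted p = 0.588) and from 0.25 to 0.5 for Plk1 (exact permutation p = 0.464). Both genes were uncalled in that library, so these rises follow from leaving it out.

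Widths were compared with limma on log2 width over the 3724 genes with a peak in all 10 libraries, of which 5.72% differed between later and earlier stages at an adjusted p under 0.05. Only Ccna2 and Ccnb2 of the 10 could enter, and neither passed. The log2 difference, later minus earlier, was -1.0 ± 0.40 (SE) for Ccna2 and 0.15 ± 0.21 (SE) for Ccnb2, with limma adjusted p-values of 0.125 and 0.697. Without the first late pachynema library the difference of Ccna2 was -0.64, with a limma adjusted p of 0.365. Without the second diplonema library Ccna2 passed, at -1.59 and a limma adjusted p of 0.0144. Between diplonema and leptonema 2.23% of the 3724 genes differed, and again neither gene passed. The log2 difference was -1.19 ± 0.61 (SE) for Ccna2 and 0.77 ± 0.32 (SE) for Ccnb2, with limma adjusted p-values of 0.271 and 0.172. For Ccna2 it was 0.02 without the first diplonema library and -2.35 without the second, where the limma adjusted p was 0.0252.

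To include genes that were not called in every library, each width was ranked among the called genes of its library as a percentile, with 0 for no peak, and limma was run on these percentiles over 11204 genes. This test was added after the data had been seen. A stage without a call in either library adds no spread to its SE and p. The SDs given beside them span libraries of several stages and are a different measure. In all 10.1% of genes differed at this threshold. The later stages were higher at an adjusted p under 0.05 in 5.87% of genes and lower in 4.21%. Of the 10 genes 1 passed, Ccna1, and it was higher. Its mean percentile was 74.0 ± 21.5 (SD, n = 4) in the later and 2.97 ± 5.78 (SD, n = 6) in the earlier libraries, a difference of 71.0 ± 8.64 (SE) with a limma adjusted p of 0.00696. Over the alternative settings of this test the difference lay between 52.3 and 82.1 and the limma adjusted p between 0.000302 and 0.0246. An exact permutation test of the same percentiles gave the lowest p it allows, 0.00476, and an adjusted p of 0.126, and called 0 of 11204 genes, with 1980 at an unadjusted p under 0.05. The percentiles of Ccna1 did not overlap between later and earlier libraries within experiment 1 or within experiment 2, where the means were 62.7 against 1.14 and 85.2 against 4.81.

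The differences of the other 9 genes did not pass. Plk1 stood at 70.4 ± 47.1 (SD, n = 4) in the later and 18.3 ± 20.9 (SD, n = 6) in the earlier libraries, with a limma adjusted p of 0.138. Plk1 was not called in the first late pachynema library, and without it the difference was 75.0. Aurkb gave 35.4 against 2.71 (limma adjusted p = 0.127), and 45.8 as the difference without that library, where it was uncalled as well. That library was set apart by its low calls of these same genes. Both rises therefore follow from leaving it out and are a description. Cdk1 gave 47.4 against 21.2 (limma adjusted p = 0.184) and passed without the second zygonema library (35.2, limma adjusted p = 0.0208). Aurkc gave 7.85 against 0, and since it was measured in diplonema alone this is a description. Ccnb1 gave 29.8 against 7.76, Cdk2 53.3 against 40.8 and Ccnb2 32.2 against 26.2, with limma adjusted p-values of 0.17, 0.72 and 0.337. Ccna2 (39.3 against 66.9) and Cdc25c (12.1 against 28.0) were the 2 genes with the lower mean in the later stages, with limma adjusted p-values of 0.375 and 0.569. The median difference over the 10 genes was 17.3 percentile points, beside -1.20 over all 11204 genes. In experiment 1 alone 8 of the 10 differences were positive, against 26.7% of all 11204 genes, and in experiment 2 all 10 were, against 56.8%. Later and earlier libraries did not overlap in 2 of the 10 genes in experiment 1 (7.21% of all genes) and in 5 of the 10 in experiment 2 (22.4% of all genes).

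**Figure D4:**
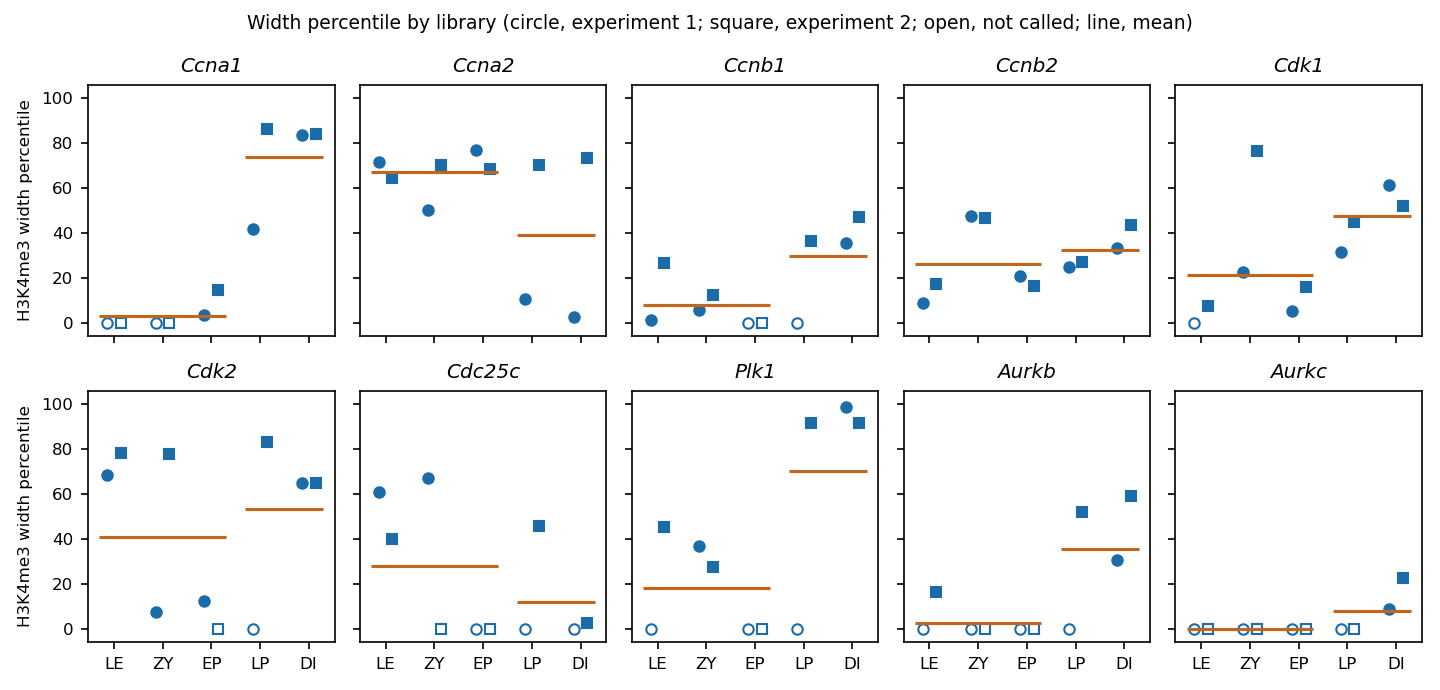
Percentile of the H3K4me3 width among the called genes of each library (y axis) by stage (x axis) for the 10 genes, with circles for experiment 1, squares for experiment 2, open symbols at 0 for no called peak and lines for the means of the 6 earlier and 4 later libraries. Ccna1 goes from a mean of 2.97 to 74.0, and in Plk1 the late pachynema library of experiment 1 lies at 0 while the other 3 later libraries lie above 90.

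H3K4me2/3 had 1 list per stage, so its widths were compared without a test. Of the 10 genes 9 were called in all 5 lists, against 47.8% of all genes. Of these 9, 8 were widest in diplonema (41.5% of the 9900 such genes) and 7 were wider in late pachynema and in diplonema than in each of the first 3 stages (51.9%). The exception to the first was Ccnb1, widest in late pachynema. The exceptions to the second were Cdk2, at 2372 bp in early pachynema against 2294 bp in late pachynema, and Cdc25c, at 2029 bp in zygonema against 1900 bp. The ratio of the diplonema to the leptonema width had a median of 1.62 over the 9 genes, all of which were above 1, beside 1.20 over 10733 genes, of which 62.9% were above 1. Against early pachynema the medians were 1.87 and 1.44. In H3K9ac the early pachynema peak was narrower than the zygonema peak at all 6 of the genes called in both, with a median ratio of 0.356, beside 0.767 over 6866 genes, of which 27.8% were wider in early pachynema.

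Other genes of the division machinery were taken from a list of 56 in 6 groups. Of these, 54 had an H3K4me3 peak in at least 1 library, as did 11204 of all 20698 genes, and Aurka and Ensa had none in any list. In the percentile test 3 of the 54 were higher and 5 lower in the later stages, against 5.87% and 4.21% of all genes tested. The count of higher genes is thus close to the share over all genes. The same shares stand beside the group counts that follow. The kinases and passenger complex group (10 genes) held 1 higher, Haspin, whose kinase marks the centromere for the passenger complex, and 1 lower, Plk4, the regulator of centriole duplication. Haspin widths were 307 to 973 bp in the 6 earlier libraries and 781, 2094, 2073 and 2448 bp in the later ones. Its percentile difference was 47.7, with a limma adjusted p of 0.00785, and it passed the log2 width test as well, at 1.40 ± 0.22 (SE) and a limma adjusted p of 0.00969. Between diplonema and leptonema its log2 difference was 1.69 ± 0.35 (SE), with a limma adjusted p of 0.0307. Plk4 differed by -27.9 percentile points, with a limma adjusted p of 0.0152. It did not pass the log2 width test, at -0.71 ± 0.20 (SE) and a limma adjusted p of 0.0538. Its H3K4me2/3 peak was widest in diplonema, at 2495 bp.

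In the group of the anaphase-promoting complex (APC/C) and separase, of 13 genes, 1 was higher and 2 were lower. Fbxo43 and Fbxo5 encode related inhibitors of the APC/C, EMI2 and EMI1, and they moved in opposite directions. Fbxo43 had peaks in 3 of the 6 earlier libraries, of 201 to 284 bp, and widths of 700, 964, 1441 and 1519 bp in the 4 later ones, a difference of 72.5 percentile points with a limma adjusted p of 0.000724. Fbxo5 had peaks of 193 to 1711 bp in all 6 earlier libraries and none in the 4 later ones, a difference of -59.0 with a limma adjusted p of 0.00274. Sgo1, a protector of cohesion, differed by -51.4 (limma adjusted p = 0.0104). H3K4me2/3 was called at Fbxo5 in all 5 stages, including 1700 and 2088 bp in late pachynema and diplonema.

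In the phosphatase control group 2 of the 5 measured genes passed, both lower. Mastl, the Greatwall kinase gene, differed by -16.8 percentile points (limma adjusted p = 0.0331), with widths of 629 to 1458 bp in the earlier and 713 to 1180 bp in the later libraries. It did not pass the log2 width test, at -0.44 ± 0.20 (SE) and a limma adjusted p of 0.185. Cdc14a, a phosphatase gene, had H3K4me3 peaks of 830 and 1347 bp in leptonema and 258 bp in the second diplonema library and was uncalled in the other 7. Its difference of -22.8 (limma adjusted p = 0.0152, exact permutation p = 0.467) therefore rested on leptonema, with a mean of 24.7 ± 38.5 (SD, n = 6) over the earlier libraries. In the prophase exit group (8 genes) Lin54, whose product binds the CHR, was higher, by 36.3 percentile points (limma adjusted p = 0.0224) and by 1.02 ± 0.22 (SE) in log2 width (limma adjusted p = 0.0262). The 13 genes of CDK1 regulation and the 6 of the spindle checkpoint held none that passed. By the exact permutation test none of these 8 genes passed, with adjusted p-values of 0.126 to 0.715.

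**Figure D5:**
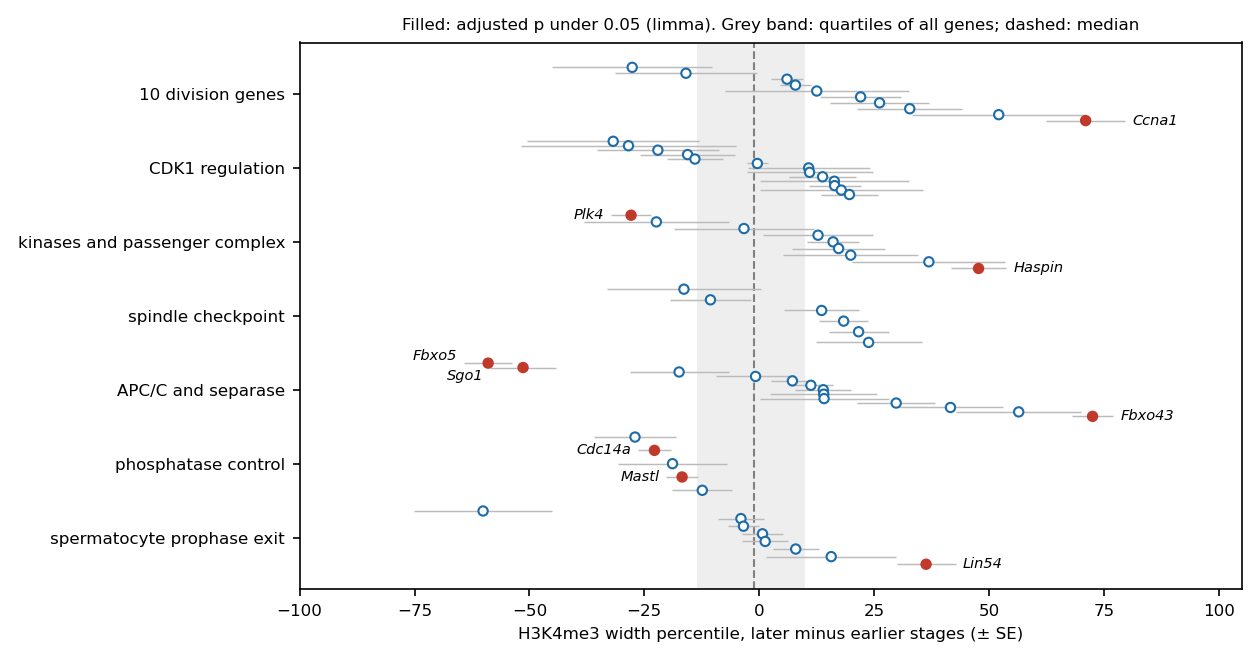
Difference in H3K4me3 width percentile between the 4 later and 6 earlier libraries (x axis, percentile points ± SE) for the 10 division genes and the 6 groups of other genes (y axis), with filled symbols where the limma adjusted p was under 0.05. The grey band spans the quartiles over all 11204 genes, -13.3 to 9.80; Ccna1 at 71.0 and Fbxo43 at 72.5 lie farthest to the right.

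Genes with the same calls in all 20 lists were sought for each of the 8 genes whose H3K4me3 call varied. Ccna1 shared its 20 calls with 3 genes, Zmynd10, Spata4 and Smim24, of which the first is known for the assembly of motile cilia. Aurkc shared them with 26 genes, and the nearest in width were Glipr1l1, Drc7 and 4930590J08Rik, at mean percentile differences of 0.702 to 1.15. Plk1 shared them with 4, of which Txndc12, Kdm4a and B230118H07Rik were nearest, and Aurkb with 14, led by Slc25a10, Gem and Pard3. Cdk2 shared its calls with 108 genes, Pmel at its own promoter included, Ccnb1 with 33 and Cdc25c with 30. Cdk1 had no gene with identical calls, and Pam16, Arfgap3 and Pink1 had the same call in 19 of 20.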

How the data were processed

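Peak lists from ChIP-Seq of sorted meiotic nuclei were analysed, 20 in all, and the other 31 samples of the series were not used here. The deposited values were the start and end of each peak. The authors aligned reads to mm10 with BWA mem (0.7.12) and called H3K4me3 peaks of each library separately with MACS2 (2.1.2) in broad mode (q cutoff 0.1) against input of the same stage. The Methods do not state the calling for H3K9ac. The mark H3K9ac was taken from the sample titles, since the antibody entry of those labels names H3K4me3. The lists used here carry no score or read count, so depth is unknown, and an uncalled start may still bear the mark under the calling threshold.

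Peaks were matched to protein-coding starts of GENCODE M21 (another release than the one the paper names) on chromosomes 1 to 19, which are those in the lists. No 2 lists were identical. Starts of antisense or neighbouring genes fall in the windows of 4 of the 10 genes, Ccna1, Cdk2, Cdc25c and Plk1. All-gene tests used limma 3.58.1 in R 4.3.3 with 1 mean per stage, on log2 widths centred on each library's median or on width percentiles, and exact permutation tests in Python 3.11.15, with Benjamini-Hochberg adjustment over all genes tested and a threshold of 0.05. The percentile test, which has many values of 0, was added after the data were seen. The 10 genes and the gene lists were chosen with earlier results of these data known. Named genes are the 10, those of the 56 listed genes that passed an all-gene test, and up to 3 genes with the most calls in common. Alternatives were other windows, overlaps, peak widths, list sizes, transcripts, centring and stage groups, leaving out each library and a replicate block. On simulated data at the scale of the 3724 genes tested for width, limma found 52 of 100 genes with a log2 change of 1 and 94 of 100 with a change of 2.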

Additional observations from a re-analysis of the deposited data

Results flagged for a closer look

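Of 27 sets of 4 later or 6 earlier H3K4me3 libraries, 7 had a library far from the others by Dixon's test. Several sets hold repeated values of 0 and all come from the same libraries, so the number that chance would give is unknown. The first late pachynema library called 4 of the 10 genes, against 9 or 10 in the other 3 later libraries, and its list held 5189 peaks. The same library gave the lowest later width percentile of Ccna1, 41.8 against 83.6 to 86.4, and that of Plk1, which was not called there (0) and stood at 91.5 to 98.5 in the others. The part of list length or stage purity in this was not tested. The second late pachynema library gave the highest later percentile of Cdc25c, 45.7. Among the earlier libraries, the second of early pachynema was highest for Ccna1 (14.4), the second of zygonema for Cdk1 (76.5) and the second of leptonema for Aurkb (16.2).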

How the results depend on the processing

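The peak number of a list can depend on depth, which is unknown, so a start without a peak may lack the mark or bear it under the calling threshold. Of 342 values of single genes under alternatives, 316 kept direction and side of the threshold, 12 reversed, 7 lost a call or stood at a difference of 0, and 7 passed the threshold. That of Aurkc without the first diplonema library is not read, since a single library then held all its signal. The count of genes whose calls differed by the exact permutation test was 0 under every alternative (219 to 772 at an unadjusted p under 0.05). The 213 genes with a later to earlier width difference (119 wider, 94 narrower, limma) became 4, all wider, without centring, 326 with quantile normalization, 397 with genes called in at least 8 libraries, 324 with early pachynema counted as later, and 32 (without the first diplonema library) to 306 when 1 library was left out. Without centring the median of all genes shifted by 0.25 in log2 width. The 83 genes of diplonema against leptonema became 0, 213 and 149 under the first 3 of these, and 0 (without either leptonema library, with 506 and 560 at an unadjusted p under 0.05) to 178. A lone library left in a stage was assumed to vary like the others. The 1130 genes of the percentile test became 0 under the exact permutation test and 742 (without either early pachynema library) to 1800 (without the first leptonema library). The 134 calls of the 10 genes over 20 lists became 87 with only peaks at or above each list's median width and 86 with equal list sizes. The cause of these shifts was not tested.

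Counting early pachynema as later reversed the difference in share of libraries called for Ccnb1 (-0.5) and Plk1 (-0.25), the log2 width of Ccnb2 (-0.097), and the percentile of Ccnb2 (-2.31) and Cdk2 (-20.5). The share of Cdk2 became 0.25 with wider peaks or equal list sizes. Leaving out 1 library gave ranges of -0.05 to 0.333 (Ccnb1 share), -0.25 to 0.167 (Cdk2 share), -2.35 to 0.0199 (Ccna2 log2 width, diplonema against leptonema) and -8.29 to 33.3 (Cdk2 percentile). None of these values was past the threshold except that of Ccna2 at -2.35. Plk1 passed the percentile test with equal list sizes (66.9, limma adjusted p = 0.0357).

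Between libraries of the same experiment, the correlations of deviations from the stage means ranged from -0.148 to 0.112 over 10 pairs of stages. They cover the 3724 genes with a peak in every library. In 4 of 5 stages a library was on average nearer to those of its own experiment number. With experiment as a replicate block limma called 272, 103 and 937 genes in the 3 tests, and the calls of the 10 genes stayed on the same side of the threshold, with Ccna1 at a limma adjusted p of 0.0129.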

Other observations

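Mad2l1bp and Cdc25b, of the 56 other division genes, were chosen after their values were seen. Mad2l1bp, whose product p31comet helps switch off the spindle checkpoint, had H3K4me3 in 4 of 4 later and 0 of 6 earlier libraries, at 155, 369, 373 and 661 bp, with an exact permutation p of 0.00476, the lowest the test allows, and an adjusted p of 0.463. Its H3K4me2/3 was present in all 5 stages, at 720, 672, 988, 1462 and 1614 bp, and its H3K9ac in zygonema (523 bp) and early pachynema (295 bp). Cdc25b, which encodes another CDC25 phosphatase, had H3K4me3 peaks of 160 and 146 bp in leptonema and was uncalled in the other 8 libraries, with H3K4me2/3 of 1157, 1088 and 641 bp in the first 3 stages.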
